A study of Mus musculus with 18 samples.

Results

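RNA-seq of female hybrid ES cells was used to describe what differentiation still changed when *Kdm6a* was deleted. The members are 4 libraries of *Tsix*-stop *Kdm6a* KO cells, 2 at D0 and 2 at D15, out of 18 in the series, chosen by their labels as knockout libraries of this line, and the CRISPR control was not counted among them. *Tsix*-stop is an F1 ES line from a laboratory strain and *Mus castaneus* (*cast*). It carries a transcriptional stop in *Tsix* on the laboratory-strain X chromosome, which therefore becomes the inactive X (Xi) while the *cast* X stays active (Xa). In the KO both *Kdm6a* alleles lack a stretch from exon 2 into exon 4, removed with CRISPR/Cas9, and the study's methods name 2 clones that the labels do not tie to replicate numbers. D0 cells were undifferentiated ES cells grown with LIF and then thinned of feeder fibroblasts, and D15 cells had been cultured without LIF as embryoid bodies (EBs) and then plated, and no directing factor is named in the methods. The 2 wt D0 and 2 wt D15 libraries of the same *Tsix*-stop line, which share the stop in *Tsix* and the culture but carry no deletion, are the comparison. EBs are mixtures of cell types, so fewer cells of a type and less RNA per cell cannot be told apart in any value given here. Since the replicates of a group differ as clones or cultures, p-values measure only the spread between these samples.

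KDM6A removes methyl groups from lysine 27 of histone H3, a mark that Polycomb complexes place on silent developmental genes, and it also acts in enhancer complexes in ways that do not need its enzymatic activity. Differentiating ES cells silence the factors of naive pluripotency, pass through a primed state and a primitive-streak-like state, and form mesoderm, endoderm, epithelium and, in female cells, an inactive X. In such EBs, visceral endoderm, heart and smooth muscle, fibroblast-like stroma and vessels are the usual products.

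*Kdm6a* itself, at X:18162575-18279936 on GRCm38, was listed at 129.4 and 48.4 CPM (counts scaled to library size) in the KO at D0 and at 93.3 and 28.0 CPM at D15, against 139 and 208 CPM in wt at D0 and 138 and 109 at D15. Replicate 2 of the KO was the lower library on both days and lay below every wt library, and KO replicate 1 lay below both wt libraries of the same day at D0 and D15. The deletion leaves most exons of the gene in place, so a count over the whole gene does not test it. ES cell identity at D0 was checked on *Pou5f1* and *Nanog*, which stood at 1387 and 1522 CPM and at 1001 and 796 CPM in the KO. The fibroblast collagen gene *Col3a1* had 0.0497 and 0.0623 CPM in the KO at D0, and *Col1a1* had 2.10 and 1.81. KO libraries held 51091158 to 64765935 counts, and all 8 libraries 51091158 to 68796184.

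Over 13121 tested genes, 2585 were higher and 1033 lower at D15 than at D0 in the KO (edgeR's quasi-likelihood test, a false discovery rate (FDR) of at most 0.1 and at least a 2-fold change), which is 19.7% and 7.87% of the genes. In wt the same test called 3127 higher and 1860 lower, 23.8% and 14.2%. Of the wt rises 68.3% were also called higher in the KO, and of the wt falls 38.1% were also called lower. Seen from the KO, 82.6% of its rises and 68.6% of its falls were called in wt as well. A further 429 genes rose and 298 fell in the KO with no call in wt, and 20 rose in the KO that fell in wt, while 26 fell that rose in wt. Genes called higher in wt had a median log2 fold change of 2.30 there and 1.62 in the KO, and genes called lower in wt had medians of -1.41 and -0.82; these genes were chosen on the wt values, so the wt medians are favoured by the choice. The converse choice gave 2.14 in the KO and 2.46 in wt for genes called higher in the KO, and -1.44 and -1.46 for genes called lower. The median over all tested genes was -0.01 in the KO and -0.003 in wt.

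The change in the KO was also tested against the change in wt, as the KO change minus the wt change on the log2 scale. It was higher in 884 genes (6.74%) and lower in 1359 genes (10.4%). For the list counts below, these shares are the background of the differences. The 19.7% higher and 7.87% lower are the background of the KO calls. Genes were tested if they reached 2.5 CPM in 2 libraries, which wt D15 alone could supply. For list members tested in that way a lower change in the KO is favoured by the filter. Among the genes that rose in wt, 33.9% had a lower change in the KO and 4.67% a higher one. Among those that fell in wt, 22.3% had a higher change in the KO and 2.31% a lower one. Both sets were chosen on the wt change, which the difference subtracts. Lower changes among wt rises and higher ones among wt falls are thus favoured by the choice. Without replicate 1 of wt D15 the 1359 genes became 885, and without replicate 2 of KO D15 they became 1636.

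**Figure D1:**
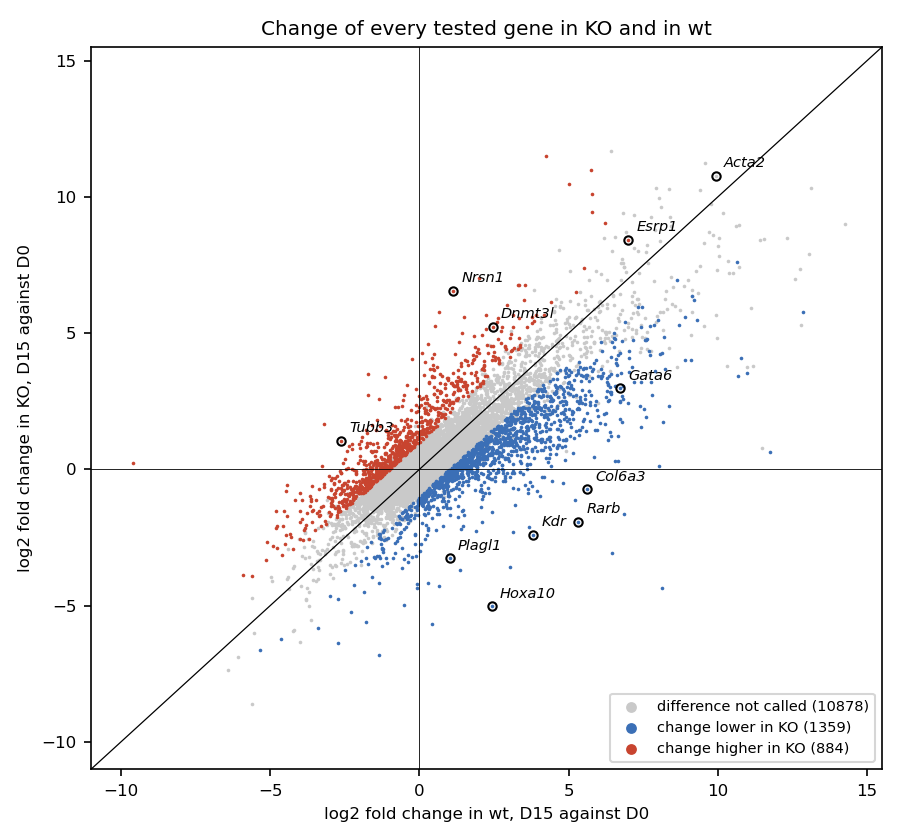
Each point is 1 of the 13121 tested genes, with its log2 fold change from D0 to D15 in wt on the x axis and in the KO on the y axis, and the diagonal marks equal change. Most genes lie along the diagonal; blue points, 1359 genes with a lower change in the KO, reach from induced wt genes such as *Gata6* down to genes such as *Kdr* and *Rarb* that rose in wt and fell in the KO, and red points mark 884 genes with a higher change.

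The 12 largest rises in the KO, among called genes of at least 5 TPM (transcript abundance scaled to length and library) whose D0 and D15 libraries did not overlap, were *Cav1*, *2610528J11Rik*, *Acta2*, *Car4*, *Col3a1*, *Tns4*, *Tmprss2*, *Tnnt3*, *Enpp2*, *H19*, *Psmb8* and *Enpp3*. All 12 were called higher in wt too. *Cav1*, the main protein of membrane caveolae, had 0 and 0.0156 CPM at D0 and 7.33 and 58.7 at D15. Replicate 2 was the higher D15 library for *Cav1*, and both lay far above D0. *Enpp3*, an ecto-nucleotide phosphodiesterase gene at 10:24772406-24842823, went from 0.116 and 0.140 CPM to 90.5 and 91.6, a log2 fold change of 9.45 ± 0.19 (SE; edgeR adjusted p = 8.8e-08), and from 0.649 and 0.627 to 35.6 and 34.2 CPM in wt. Its change was 3.68 larger in the KO on the log2 scale (edgeR adjusted p = 0.00027). For *Car4*, a membrane-bound carbonic anhydrase, the 3 counts at D0 put the ratio at 1390 with a 95% counting interval of 475 to 6744.

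The 12 largest falls under the same rule were *Gm694*, *Pramel6*, *Mmp12*, *Osr2*, *Casr*, *Magea5*, *Pramel7*, *Eif4e1b*, *Crygc*, *Magea8*, *Spic* and *Gm13889*. Of these, 11 were called lower in wt as well. The exception was *Gm13889*, a predicted gene, with 30.3 and 34.8 CPM at D0 and 0.646 and 0.626 at D15 in the KO, while wt stayed between 1.83 and 2.75 CPM on both days. *Pramel7*, a gene of the PRAME family active in the early embryo and in naive ES cells, fell from 104 and 80.8 CPM to 1.70 and 0.718 in the KO (log2 fold change -6.24 ± 0.38 SE, edgeR adjusted p = 1.0e-05). *Spic*, an Ets-family factor gene, fell from 37.1 and 21.2 to 0.629 and 0.387 CPM, and by 2.44 more than in wt on the log2 scale (edgeR adjusted p = 0.0070). *Mmp12*, a secreted metalloprotease gene, fell from 15.6 and 12.8 to 0.119 and 0.129 CPM and only from 9.53 and 5.82 to 3.40 and 2.59 CPM in wt. Members of the *Pramel* and *Magea* families have close copies, and how the counts divided reads among copies is not known, so their single values are uncertain.

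Genes of naive pluripotency were shut down in part. The list held 16 genes, all tested, and 5 were called lower and 1 higher in the KO, against 13 lower and 0 higher in wt; the median log2 fold change was -0.71 in the KO and -1.48 in wt. *Tfcp2l1*, a naive-state transcription factor, fell from 1707 and 1513 CPM to 613 and 434 (log2 fold change -1.62 ± 0.21 SE, edgeR adjusted p = 0.00032). *Nr5a2*, a nuclear receptor that can act upstream of *Pou5f1*, fell from 63.1 and 60.9 to 17.9 and 16.1 CPM, and its wt change differed by only 0.20 (edgeR adjusted p = 0.62). *Tbx3*, a T-box factor of the naive network, fell from 411 and 367 to 122 and 59.4 CPM. *Klf4* was the 1 member whose change was lower in the KO than in wt. It stood at 656 and 691 CPM at D0 and 257 and 167 CPM at D15 in the KO, while the wt libraries lay at 222 and 224, then at 181 and 183 CPM. The KO fall of 1.67 on the log2 scale started from a D0 level above both wt libraries and ended with 1 library above and 1 below both wt D15 libraries.

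Of the other naive genes, 5 had a higher change in the KO, namely *Zfp42*, *Fbxo15*, *Nr0b1*, *Klf2* and *Dppa3*. *Zfp42*, the REX1 gene and a standard mark of naive ES cells, had 564 and 483 CPM at D0 and 376 and 286 at D15, a log2 fold change of -0.66 ± 0.17 (SE) that does not reach the 2-fold threshold. In wt it went from 724 and 574 to 155 and 167 CPM, and the difference between genotypes was 1.35 (edgeR adjusted p = 0.0070). *Nr0b1*, an X-linked nuclear receptor gene, had 181 and 236 CPM at D0 and 150 and 123 at D15 in the KO, against 35.3 and 40.5 in wt at D15. *Dppa3*, the maternal-effect and germ-cell gene also called *Stella*, went up from 23.7 and 11.03 to 41.2 and 52.4 CPM in the KO and down from 38.2 and 37.3 to 16.8 and 17.6 in wt. That KO rise of 1.43 on the log2 scale rested on D0 replicate 2, without which it was 0.98 and no longer called.

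The core pluripotency list behaved alike in part: of 12 tested genes 1 was lower and 3 were higher in the KO, against 5 lower and 1 higher in wt. The KO shares, 8.33% lower and 25% higher, lie near the 7.87% and 19.7% of all tested genes. *Pou5f1*, which encodes OCT4, the factor on which pluripotency depends, had 1387 and 1522 CPM at D0 and 1240 and 1079 at D15. The log2 fold change was -0.33 ± 0.14 (SE) in the KO and -1.08 in wt, and the difference of 0.76 had an edgeR adjusted p of 0.027 but stayed under 2-fold. *Nanog* fell from 1001 and 796 to 491 and 388 CPM, by 1.03 on the log2 scale, and lost its call without D0 replicate 1 or D15 replicate 2 (-0.84 in either case), as well as in 4 other settings that left it between -0.9999 and -0.99. *Dppa2*, a chromatin factor gene of early embryos, stood at 65.7 and 56.1 CPM at D0 and 63.7 and 56.9 at D15 in the KO, with overlapping days, and fell from 98.2 and 88.7 to 20.6 and 20.4 CPM in wt (difference 2.17, edgeR adjusted p = 0.00051). Its neighbour and partner *Dppa4* rose from 49.0 and 55.1 to 132 and 122 CPM in the KO and did not pass the test in wt.

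*Utf1* and *Lin28a*, genes of the ES cell and primed state, rose as well. *Utf1*, which encodes a chromatin-bound protein, went from 134 and 93.6 to 495 and 405 CPM in the KO, and *Lin28a*, an RNA-binding protein that blocks let-7 maturation, from 25.9 and 38.4 to 162 and 188. Their changes exceeded those in wt by 1.22 and 1.41 on the log2 scale. Both differences depended on single libraries: that of *Utf1* was 0.99 without KO D0 replicate 2 and 0.96 without wt D15 replicate 1, and that of *Lin28a* was 0.85 without wt D0 replicate 2. The *Lin28a* difference also missed the FDR without replicate 1 or replicate 2 of wt D15 (edgeR adjusted p = 0.12 and 0.11).

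*Dnmt3l*, at 10:78041947-78063622, which encodes a cofactor of the de novo DNA methyltransferases, was among the rises that were larger in the KO. It had 7.44 and 17.3 CPM at D0 and 483 and 450 CPM at D15 in the KO, against 41.8 and 49.9, then 240 and 261 CPM in wt. KO D0 libraries were below both wt D0 libraries and KO D15 libraries above both wt D15 libraries. The log2 fold change was 5.24 ± 0.36 (SE; edgeR adjusted p = 1.7e-05), larger than in wt by 2.79 (edgeR adjusted p = 0.0044). Of the 10 tested genes of DNA methylation, *Dnmt3a* was the other one called higher, from 96.8 and 58.9 to 203 and 138 CPM, though not without D0 replicate 2 (log2 fold change 0.82) or D15 replicate 1 (0.83). Over the list 20% were called higher and 20% lower in the KO, against 19.7% and 7.87% of all tested genes. *Uhrf1*, which guides maintenance methylation, fell from 763 and 784 to 279 and 275 CPM, and *Tet2*, an enzyme that oxidises methylated cytosine, from 340 and 344 to 111 and 83.9 CPM, and both also fell in wt.

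**Figure D2:**
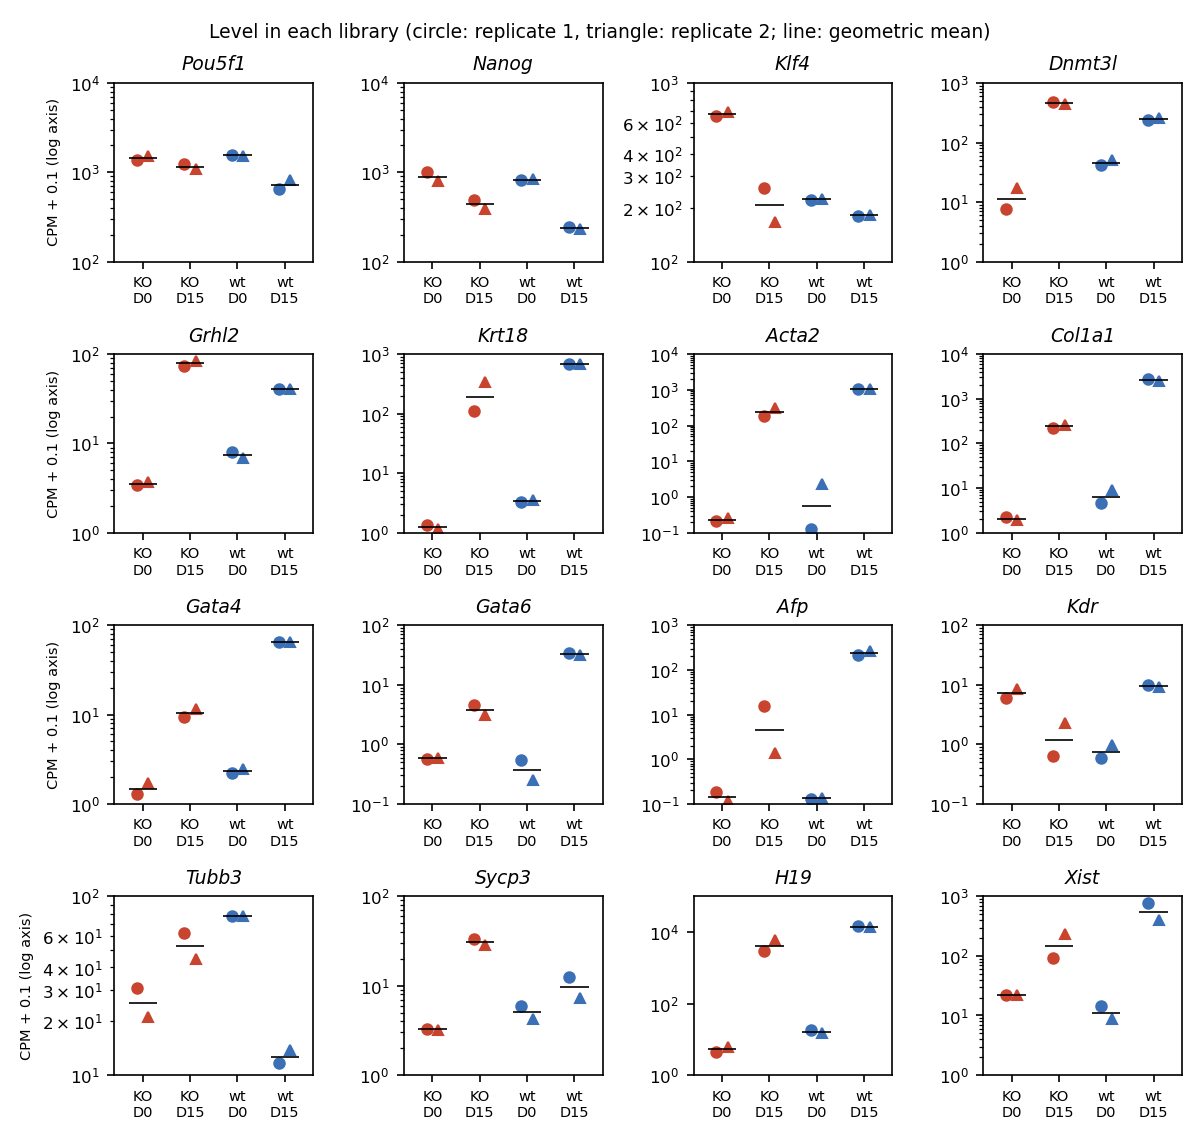
CPM plus 0.1 on log axes in each KO (red) and wt (blue) library at D0 and D15 for 16 genes, with circles for replicate 1, triangles for replicate 2 and a line at the geometric mean. *Acta2*, *Krt18* and *H19* rose in both genotypes, *Gata6*, *Afp* and *Col1a1* reached lower D15 levels in the KO, *Kdr* and *Tubb3* moved in opposite directions, and *Dnmt3l* and *Sycp3* ended higher in the KO.

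Genes of the formative and primed state were called in both directions. Of 10 tested genes 4 were higher and 2 lower in the KO, against 6 and 1 in wt, and 3 had a lower change in the KO. The KO shares were 40% and 20%, against 19.7% and 7.87% of all tested genes. *Fgf5*, the ligand gene that marks the primed epiblast, had 0.0331 and 0.109 CPM at D0 and 9.32 and 13.7 at D15, with wt D15 at 11.6 and 11.4. *Otx2*, a homeobox gene of epiblast and forebrain, rose from 80.4 and 21.4 to 252 and 125 CPM, with replicate 1 the higher KO library on both days. *Sox4*, a SoxC factor gene, rose from 4.80 and 5.34 to 20.4 and 23.8 CPM but reached 66.1 and 75.9 in wt, a change lower by 2.33 (edgeR adjusted p = 0.0020). *Cdh2*, the N-cadherin gene, stood at 9.67 and 15.0 CPM at D0 and 15.0 and 23.3 at D15 in the KO and did not pass the test, whereas wt went from 3.12 and 6.55 to 61.6 and 53.6.

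The primitive streak list was divided. Of 18 genes 12 were tested, 6 were higher and 3 lower in the KO against 7 and 1 in wt, and 4 had a lower change in the KO. *Eomes*, the T-box gene of streak and extraembryonic cells, rose from 4.06 and 4.50 to 51.1 and 47.8 CPM, above wt D15 at 31.1 and 30.6. *Dll1*, a Notch ligand gene of presomitic mesoderm, rose from 0.547 and 0.109 to 6.50 and 8.41 CPM, much as in wt at 7.92 and 8.06. *T*, the Brachyury gene of the streak, instead fell from 11.6 and 21.4 to 0.884 and 4.05 CPM (log2 fold change -2.75 ± 0.59 SE, edgeR adjusted p = 0.0041), while wt stayed between 7.17 and 8.204 CPM over both days (difference -2.81, edgeR adjusted p = 0.036). *Cdx1*, a caudal homeobox gene, fell from 5.90 and 47.4 to 0.306 and 0.792 CPM. The level of 47.4 belonged to D0 replicate 2, and the difference of *Cdx1* from wt was no longer called without it (-1.64, edgeR adjusted p = 0.12), nor without KO D15 replicate 1, wt D0 replicate 1 or either wt D15 library. *Cdx2* showed the same library: 0.381 and 5.42 CPM at D0, 0.612 and 2.58 at D15, so the days overlapped, the sign turned to 2.05 without D0 replicate 2 and the gene was called lower without D0 replicate 1 (-1.76). The median of the list, 1.60 over the 12 tested genes, became -0.68 when the 4 KO libraries were fitted alone, since genes that passed the filter through wt D15 left the test.

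Hox genes, the homeobox genes that order the body axis, were mostly silent in these EBs. Of 39 in the tables, 9 reached 2.5 CPM in 2 libraries, and 2 of those were called higher and 4 lower in the KO, against 5 higher and 1 lower in wt. The KO shares were 22.2% and 44.4%, against 19.7% and 7.87% of all tested genes. *Hoxa10* fell from 1.34 and 6.73 to 0.153 and 0.0920 CPM in the KO and rose from 0.788 and 0.557 to 3.38 and 3.84 in wt, a difference of -7.43 (edgeR adjusted p = 0.0031). *Hoxd11* was flat in the KO, at 0.166 and 0.156 CPM at D0 and 0.153 and 0.111 at D15, and rose in wt to 3.13 and 3.21 CPM. It passed the filter only through wt D15, as did *Hoxb2* and *Hoxb3*. Summed over all 39 genes, the KO held 31.0 and 55.6 CPM at D0 and 11.2 and 14.9 at D15, and wt 32.9 and 23.1, then 52.8 and 51.5.

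Endoderm regulators were mostly still called higher, and those named here ended at lower levels than in wt. *Foxa1* and *Cer1* passed the filter of 2.5 CPM only through wt D15, and *Foxa2* and *Sox17* reached it in 1 KO library each. The count of KO rises thus includes genes that were tested because they are high in wt. Of 17 genes 13 were tested, and 9 were higher and 1 lower in the KO, against 10 and 0 in wt, with medians of 2.04 and 3.13; 9 had a lower change in the KO and 2 a higher one. *Gata4*, a zinc-finger factor of endoderm and heart at 14:63198922-63271692, rose from 1.19 and 1.60 to 9.18 and 11.3 CPM in the KO and from 2.10 and 2.39 to 64.6 and 64.7 in wt. Its log2 fold change was 2.87 ± 0.20 (SE; edgeR adjusted p = 1.8e-05), lower than in wt by 1.98 (edgeR adjusted p = 0.0027). *Gata6*, which starts the primitive endoderm programme, reached 4.51 and 3.06 CPM from 0.464 and 0.498, against 34.0 and 30.9 in wt (difference -3.74, edgeR adjusted p = 0.0035). *Foxa1*, a forkhead pioneer factor gene, reached 1.45 and 1.93 CPM and *Foxa2* 0.935 and 2.52 CPM at D15, against 21.0 and 20.3, and 10.6 and 10.8 CPM in wt. *Sox17*, an endoderm HMG-box gene, was at 0.828 and 0.607 CPM at D0 and 1.10 and 2.83 at D15 in the KO, and its rise of 1.45 was not called without D15 replicate 2 (0.65), whereas wt reached 16.0 and 16.4.

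Genes for proteins that visceral endoderm secretes or takes up showed the widest gap in median between the genotypes. Of 24 genes 19 were tested, 15 were higher and 1 lower in the KO and 16 and 1 in wt, yet the medians were 1.76 and 5.49, and 10 had a lower change in the KO. *Ttr*, *Vtn* and *Fgb* passed the filter of 2.5 CPM only through wt D15. The gap thus includes genes that were tested because they are high in wt. *Afp*, α-fetoprotein, had 0.0828 and 0.0156 CPM at D0 and 15.2 and 1.29 at D15 in the KO, so D15 replicate 1 lay far above replicate 2, and 218 and 261 CPM in wt. *Ttr*, which carries thyroid hormone and retinol-binding protein, had 0 counts in both KO D0 libraries and 1.10 and 1.01 CPM at D15, at least 22.0-fold higher than the floor of 3 counts per library, against 36.5 and 45.4 CPM in wt D15. Neither *Afp* (edgeR adjusted p = 0.37) nor *Ttr* had a called difference in change, so these are gaps in D15 level only. *Vtn* (vitronectin) and *Fgb* (fibrinogen β) were near 0 in the KO throughout, with 2 counts in all at D0 and 3 and 22 counts at D15, and wt D15 held 5.90 and 8.53 and 15.6 and 17.8 CPM. *Cubn*, cubilin, an uptake receptor, rose from 0.232 and 0.140 to 3.72 and 2.98 CPM in the KO (log2 fold change 4.16 ± 0.34 SE, edgeR adjusted p = 3.6e-05) and to 10.8 and 9.09 in wt, with a difference of -0.44 that did not pass (edgeR adjusted p = 0.53).

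Smooth muscle was the programme with no exception. Of 13 contractile genes 12 were tested, and all 12 were called higher in the KO and in wt, with medians of 3.69 and 4.64, and 3 had a lower change in the KO (*Des*, *Cnn2* and *Myl9*). *Acta2*, smooth muscle α-actin at 19:34241090-34255590, rose from 0.116 and 0.156 CPM to 180 and 305 CPM (log2 fold change 10.77 ± 1.10 SE, edgeR adjusted p = 9.2e-05), with wt D15 at 1058 and 1065 CPM. *Tagln*, the actin-binding transgelin, rose from 0.812 and 0.919 to 67.2 and 162 CPM, against 457 and 446 in wt. *Myocd*, myocardin, the coactivator that drives contractile genes through SRF, rose from 0.0331 and 0.0467 to 0.629 and 2.28 CPM. KO D15 levels of these 3 genes were below both wt D15 libraries, although none of their differences in change passed the test.

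Cardiac genes were induced more unevenly. Of 26 genes 18 were tested, with 11 higher and 1 lower in the KO against 14 and 1 in wt, and 8 had a lower change. *Hand1*, a basic helix-loop-helix gene of heart and trophoblast, rose from 0.0828 and 0.125 to 23.8 and 80.6 CPM, with wt D15 at 92.5 and 84.5. Its paralogue *Hand2* stopped at 1.96 and 0.976 CPM, from 0.298 and 0.405, against 35.8 and 39.1 in wt (difference -4.21, edgeR adjusted p = 0.0025). *Hand2*, like *Myl3* and *Mef2c* on the list, passed the filter of 2.5 CPM only through wt D15. *Actc1*, cardiac α-actin, reached 3.32 and 5.34 CPM from 2 counts at D0, a ratio of 267 with a 95% counting interval of 73.5 to 2211, against 15.6 and 19.7 CPM in wt. The difference in change of *Actc1* was not called (edgeR adjusted p = 0.12). *Tnnt2*, cardiac troponin T, had 3.81 CPM in D15 replicate 1 and 0.718 in replicate 2, after 0.464 and 0.670 at D0, and without D15 replicate 1 its log2 fold change fell from 2.00 to 0.35 and was not called, as was the case without D0 replicate 1 (1.78, edgeR adjusted p = 0.13).

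Endothelial and blood genes went in both directions. Of 15 tested endothelial genes 7 were higher and 3 lower in the KO, against 9 and 1 in wt. *Cdh5* (VE-cadherin) had 0.493 and 4.29 CPM at D15 after 0.0497 and 0.0312 at D0, *Tie1* 1.67 and 1.68 after 0 and 0.0467, and *Flt1*, the VEGFR1 gene, 10.8 and 18.3 after 0.596 and 0.156. In wt D15 *Cdh5* had 8.06 and 8.11 CPM, *Tie1* 2.75 and 3.13, and *Flt1* 73.6 and 65.0. The change of *Flt1* was lower in the KO (-2.46, edgeR adjusted p = 0.054), and those of *Cdh5* and *Tie1* had no called difference. The *Flt1* call was lost without KO D0 replicate 1, wt D0 replicate 1 or either wt D15 library. *Kdr*, the VEGFR2 gene of vessel and blood progenitors at 5:75932827-75978458, went the other way, from 5.996 and 8.33 CPM to 0.527 and 2.21 (log2 fold change -2.39 ± 0.57 SE, edgeR adjusted p = 0.0066), while wt rose from 0.479 and 0.871 to 9.86 and 8.95. The difference was -6.20 (edgeR adjusted p = 0.0025), and KO D0 levels were already near those of wt D15. *Pecam1*, which ES cells also express, had 152 and 186 CPM at D0 and 213 and 151 at D15 with overlapping days. The embryonic globins *Hbb-y*, *Hbb-bh1* and *Hba-x* were at 0 to 3 counts in each KO library and between 2.46 and 5.40 CPM in the wt D15 libraries. These globins passed the filter of 2.5 CPM only through wt D15. Of 10 tested blood genes 4 were higher and 2 lower in the KO against 7 and 1 in wt. *Hbb-y* is 1 of those called lower, on 5 counts at D0 and 0 at D15, and the call was lost with the replicate number as a block (edgeR adjusted p = 0.12) and without D0 replicate 2 or either D15 library of the KO (edgeR adjusted p from 0.13 to 0.14). With genes at 0 counts set to their bound the median was 0.61 in place of 2.16. *Runx1*, which blood formation needs, rose from 0.662 and 0.467 to 4.69 and 9.15 CPM, against 15.1 and 15.8 in wt (difference -2.17, edgeR adjusted p = 0.024).

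Stromal matrix genes were widely induced and stayed well below wt. All 24 were tested, 19 were higher and 0 lower in the KO against 22 and 0 in wt, 13 had a lower change and 1, *Thy1*, a higher one. The median of 4.45 became 3.16 with genes at 0 counts set to their bound. *Col1a1* rose from 2.10 and 1.81 to 226 and 262 CPM in the KO (log2 fold change 6.96 ± 0.33 SE, edgeR adjusted p = 4.2e-06) and from 4.57 and 8.88 to 2788 and 2553 in wt, a change lower by 1.67 (edgeR adjusted p = 0.017). *Postn*, the matrix protein periostin, rose from 0.0994 and 0.0623 to 36.9 and 43.7 CPM, against 390 and 333 in wt. *Mgp* and *Dcn*, both genes of mature mesenchyme, had 0 counts in the KO at D0, and at D15 0.0850 and 0.0736 CPM and 0.476 and 0.258 CPM, which is at least 1.65-fold and 7.61-fold above the floor, against 12.5 and 16.8 and 18.2 and 17.8 CPM in wt. Differences in change were not called for *Postn* (edgeR adjusted p = 0.15), *Dcn* (edgeR adjusted p = 0.84) or *Mgp*. Both *Dcn* and *Mgp* passed the filter of 2.5 CPM only through wt D15. *Col6a3* did not follow its complex partner *Col6a2*: it was at 4.70 and 6.07 CPM at D0 and 3.71 and 2.76 at D15 in the KO, and at 58.6 and 61.8 in wt D15 (difference -6.35, edgeR adjusted p = 4.4e-05). Summed over the 24 genes, KO libraries held 1896 and 1726 CPM at D0 and 2124 and 2587 at D15, and wt 1878 and 2269, then 13500 and 12440.

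Of 13 tested basement membrane genes 3 were higher (23.1%, against 19.7% of all genes) and 2 lower in the KO, against 6 and 0 in wt, with medians of 0.10 and 0.94, and 7 had a lower change. *Col4a1*, the type IV collagen chain, stood at 212 and 134 CPM at D0 and 230 and 272 at D15 in the KO, under the 2-fold threshold, and rose from 99.0 and 98.3 to 1088 and 989 in wt (difference -2.86, edgeR adjusted p = 0.00084). *Lama1* and *Nid1*, a laminin chain and nidogen, fell from 156 and 193 to 63.5 and 47.9 CPM and from 616 and 549 to 275 and 235 CPM in the KO, and were not called in wt. The 3 called higher were *Lama4*, *Lamb1* and *Col4a2*, and 2 of them fell below the 2-fold threshold without D0 replicate 2 of the KO, *Lamb1* at 0.93 and *Col4a2* at 0.93, the latter also without D15 replicate 2 (0.84).

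Of 13 tested regulators of mesenchymal transition 7 were higher and 2 lower in the KO, against 11 and 1 in wt, and 8 had a lower change. *Snai2* stayed at 1.74 and 1.71 CPM at D0 and 1.36 and 2.12 at D15 in the KO, and rose from 1.08 and 0.975 to 13.9 and 11.4 in wt (difference -3.61, edgeR adjusted p = 0.0014). *Tgfb2*, a TGFβ ligand gene, reached 8.42 and 29.2 CPM from 2.32 and 2.93, against 48.8 and 40.5 in wt. *Prrx1*, a mesenchymal homeobox gene, had 0.901 and 2.76 CPM at D15, 18.2 and 15.0 in wt, with no called difference in change (edgeR adjusted p = 0.63). D15 replicate 2 of the KO was the higher one for 6 of the 7 called rises by more than 2-fold.

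Epithelial genes were mostly called higher in both genotypes. Of 20 genes 17 were tested, 13 were higher and 0 lower in the KO against 14 and 0 in wt, with medians of 4.52 and 2.62. Gene by gene the median difference was 0.03, and 13 of the 17 differences were not called. *Esrp1*, the epithelial splicing regulator, rose from 0.298 and 0.343 to 99.5 and 123 CPM (log2 fold change 8.43 ± 0.24 SE, edgeR adjusted p = 7.7e-07), with wt D15 at 104 in both libraries. *Grhl2*, a grainyhead factor that maintains epithelium, at 15:37233036-37363569, rose from 3.30 and 3.597 to 73.5 and 84.5 CPM, above wt at 40.9 and 40.2, and its change was larger by 2.06 (edgeR adjusted p = 0.00076). With *Ovol2*, these were the 3 members with a higher change in the KO, and *Cldn7* was the 1 with a lower change. The simple-epithelium keratins *Krt18* and *Krt8* rose from 1.26 and 1.07 to 109 and 338 CPM and from 2.62 and 3.49 to 46.1 and 180. Both stayed below wt D15, at 679 and 681 and at 288 and 312 CPM, and D15 replicate 2 of the KO lay above replicate 1 in each.

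Trophoblast genes, which mark the outer embryonic lineage, followed the epithelial ones. Of 19 genes 11 were tested, 8 were higher and 1 lower in the KO against 9 and 1 in wt. *Elf5*, an Ets factor of trophoblast stem cells and of glandular epithelium, reached 6.70 and 16.4 CPM from 0.133 and 0.0156, with wt at 8.28 and 6.45. *Plet1*, a surface protein gene of placenta and epithelium, rose from 0.331 and 0.514 to 8.72 and 17.3 CPM and had the list's 1 higher change (2.84, edgeR adjusted p = 0.0054), starting below the wt D0 levels of 8.29 and 9.14. The hormone genes of differentiated trophoblast on the list, such as *Prl3d1* and *Tpbpa*, did not reach the filter.

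**Figure D3:**
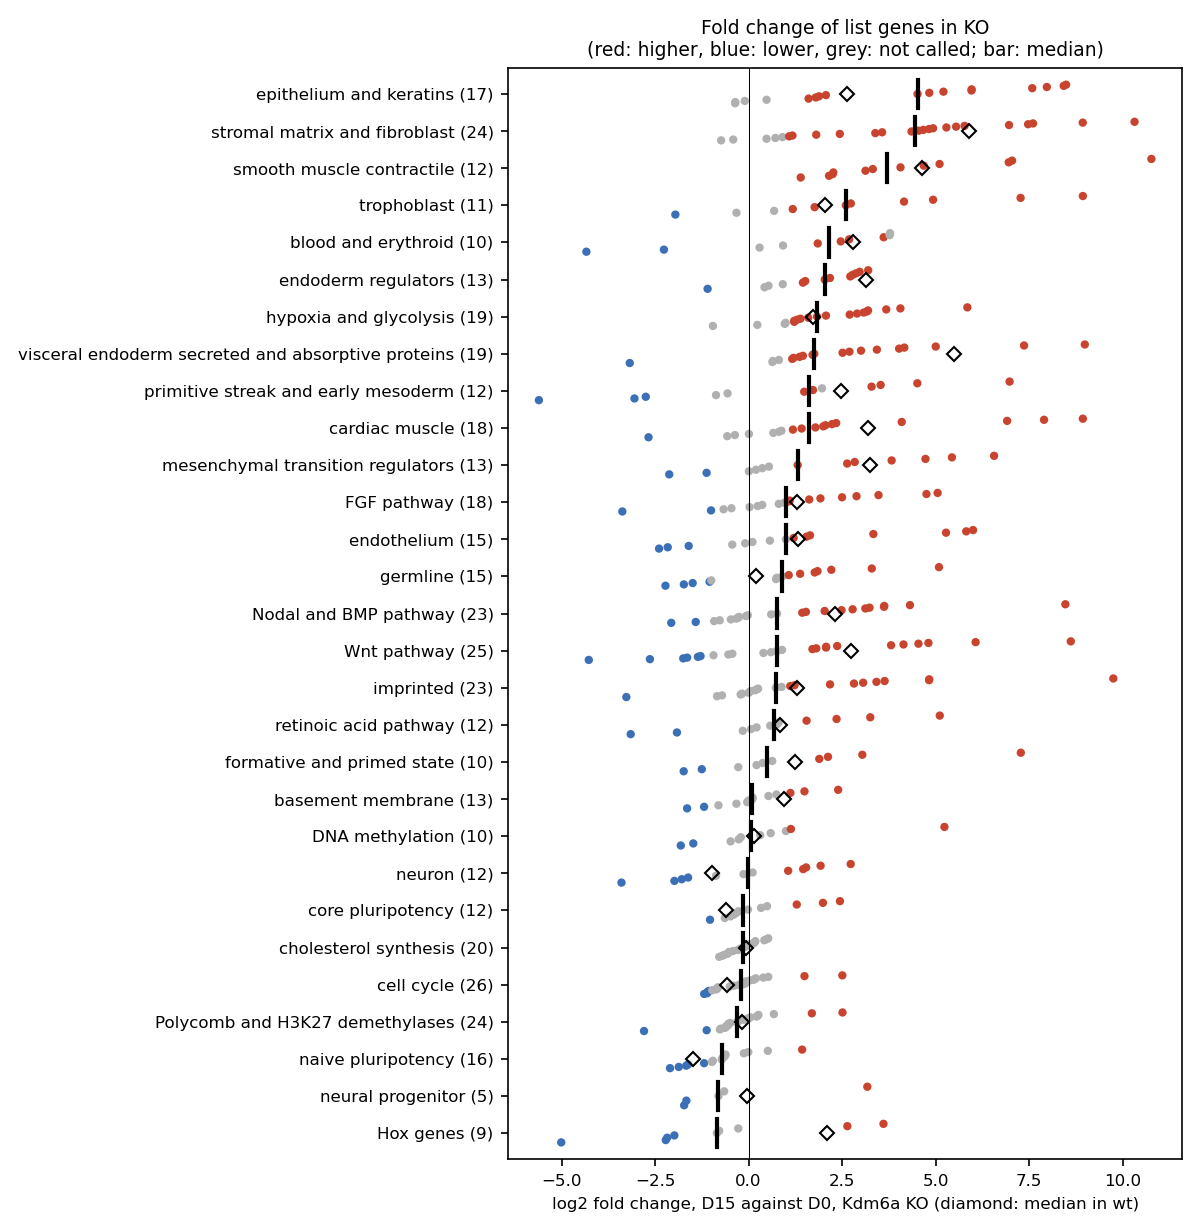
Log2 fold change from D0 to D15 in the KO (x axis) of every tested gene of 29 lists (number tested in brackets), coloured by call, with a bar at the KO median and a diamond at the wt median. Epithelial genes have a KO median of 4.52, smooth muscle genes were all called higher, and the visceral endoderm, stromal and Hox diamonds lie well to the right of the KO bars; the KO bars of primitive streak, blood, and Nodal and BMP genes depend on members that are nearly silent in the KO.

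Neural progenitor genes were rare among the tested ones. Of 20 such genes 5 were tested, with 1 higher and 2 lower in the KO against 1 and 0 in wt, and 3 had a lower change. The KO shares were 20% and 40%, against 19.7% and 7.87% of all tested genes. The 2 that fell were *Lhx2* and *Sox21*. *Pax6* was not, at 0.166 and 0.202 CPM at D0 and 0.714 and 0.736 at D15 in the KO. Of 12 tested neuronal genes 5 were higher and 4 lower in the KO against 1 higher and 6 lower in wt, and 5 had a higher change and 1 a lower one. *Tubb3*, class III β-tubulin, had 30.5 and 20.9 CPM at D0 and 62.7 and 44.4 at D15 in the KO and fell from 77.4 and 77.7 to 11.6 and 13.6 in wt, a difference of 3.68 (edgeR adjusted p = 0.00052). The KO rise of *Tubb3* itself, 1.06, was lost without D0 replicate 2 (0.82) or D15 replicate 1 (0.80). *Ina*, the neurofilament gene α-internexin, rose from 8.07 and 3.72 to 41.1 and 37.1 CPM, against a fall from 13.4 and 21.6 to 4.74 and 5.81 in wt. *Nefm* and *Nefl*, the other neurofilaments named, fell from 41.7 and 95.7 to 5.17 and 7.86 CPM and from 72.0 and 94.4 to 23.2 and 18.9 CPM. In wt *Nefm* had 11.55 and 11.6 CPM at D0 and 8.49 and 9.40 at D15 with no call, so its KO fall started above both wt D0 libraries. Its difference of -3.03 (edgeR adjusted p = 0.0055) was the list's 1 lower change. *Nefl* fell in wt too, from 38.1 and 32.7 to 14.3 and 18.9 CPM.

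Germline genes, silenced in somatic cells by DNA methylation and by Polycomb-related complexes that bind an E-box, included 9 members of 15 tested with a higher change in the KO and 0 with a lower one. In the KO 7 were higher and 4 lower, against 4 and 5 in wt. *Sycp3*, a protein of the meiotic chromosome axis, rose from 3.20 and 3.10 to 33.3 and 28.4 CPM (log2 fold change 3.29 ± 0.30 SE, edgeR adjusted p = 5.8e-05), above wt at 12.4 and 7.19 (difference 2.33, edgeR adjusted p = 0.0063). *Dnd1*, a germ-cell RNA-binding protein, rose from 14.2 and 13.1 to 60.3 and 66.4 CPM, against 13.0 and 15.8 in wt. *Tdrd1*, a Tudor-domain protein of the piRNA pathway, rose from 0.149 and 0.0934 to 4.35 and 4.01 CPM, against 1.83 and 1.76 in wt, and its difference of 2.35 was 1.07 and not called without wt D0 replicate 2, and was not called without KO D0 replicate 2 or either wt D15 library. *Rpl10l*, a testis copy of a ribosomal protein gene, fell from 119 and 99.5 to 25.7 and 21.1 CPM, less than in wt, where it reached 11.6 and 14.3, and as an intronless copy its reads may be shared with the parent gene.

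The promoters of the germline genes *Tdrd1* and *Sycp3* are shown because they hold the E-box, CACGTG, that the silencing complexes are known to bind. They run from 250 bases before to 50 after the start, as given by RefSeq on GRCm38.p6, in the direction of the gene, and capitals mark the E-box, which reads alike on both strands. *Tdrd1* lies at chr19:56825959-56826258 and *Sycp3* at chr10:88459337-88459636, both on the plus strand.
Tdrd1: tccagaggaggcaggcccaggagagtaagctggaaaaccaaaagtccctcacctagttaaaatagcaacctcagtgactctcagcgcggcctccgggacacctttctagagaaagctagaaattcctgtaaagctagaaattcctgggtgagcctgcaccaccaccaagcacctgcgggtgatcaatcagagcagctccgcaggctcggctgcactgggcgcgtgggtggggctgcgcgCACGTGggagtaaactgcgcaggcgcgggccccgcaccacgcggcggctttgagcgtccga
Sycp3: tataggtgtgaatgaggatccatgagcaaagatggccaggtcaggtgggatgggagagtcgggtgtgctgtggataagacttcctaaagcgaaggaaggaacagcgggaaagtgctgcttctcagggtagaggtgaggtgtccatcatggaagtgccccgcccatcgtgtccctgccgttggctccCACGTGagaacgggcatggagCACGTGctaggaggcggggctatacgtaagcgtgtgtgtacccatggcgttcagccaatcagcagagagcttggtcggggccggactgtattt
*Tdrd1* holds 1 E-box and *Sycp3* 2. Among 17 germline genes with a listed promoter, 11 held CACGTG, against 8.09% of all 27025 genes with a promoter, and so did all 4 of the genes called higher in the KO that had one listed. A match describes these letters and does not show binding.

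Hypoxia and glycolysis genes, most of them targets of the HIF factors, were widely induced. All 19 were tested, 15 were higher and 0 lower in the KO against 12 and 1 in wt, with medians of 1.83 and 1.72. *Adm*, the peptide hormone adrenomedullin, rose from 0.215 and 0.125 to 7.77 and 11.97 CPM, below wt at 24.2 and 22.2. *Bnip3*, a mitophagy receptor, rose from 21.4 and 11.9 to 211 and 215 CPM, against 162 and 128 in wt; the difference in change, 1.60, was 0.88 and not called without wt D0 replicate 1, and was not called without KO D0 replicate 2 or either wt D15 library. *Pgk1*, a glycolytic enzyme encoded on the X, rose from 30.5 and 22.8 to 142 and 82.2 CPM and showed no call in wt, where the days overlapped (difference 1.88, edgeR adjusted p = 0.023, and edgeR adjusted p = 0.101 without wt D15 replicate 1). *Car9*, a carbonic anhydrase long used as a hypoxia marker, rose to 1.82 and 1.45 CPM, against 14.8 and 12.4 in wt.

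The promoters of *Car9* (chr4:43506776-43507075, plus strand) and *Bnip3* (chr7:138909457-138909756, minus strand) are shown because they hold ACGTG, the core that HIF is known to bind, in capitals here on either strand and, where it falls within CACGTG, overlapping the E-box.
Car9: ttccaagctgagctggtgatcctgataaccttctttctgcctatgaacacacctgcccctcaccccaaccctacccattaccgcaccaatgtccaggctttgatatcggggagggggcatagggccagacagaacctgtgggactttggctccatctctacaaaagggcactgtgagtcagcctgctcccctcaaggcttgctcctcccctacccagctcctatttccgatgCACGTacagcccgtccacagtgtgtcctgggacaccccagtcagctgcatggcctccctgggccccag
Bnip3: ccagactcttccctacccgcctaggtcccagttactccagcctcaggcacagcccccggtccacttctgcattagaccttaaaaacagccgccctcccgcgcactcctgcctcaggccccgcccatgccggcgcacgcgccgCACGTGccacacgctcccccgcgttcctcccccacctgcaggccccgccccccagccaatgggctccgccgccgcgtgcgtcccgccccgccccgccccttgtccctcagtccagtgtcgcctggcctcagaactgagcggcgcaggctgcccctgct
Among 16 hypoxia genes with a listed promoter, 13 held ACGTG, against 21.8% of all genes with a promoter, and 11 of the 14 called higher in the KO did. The same 5 letters were in 13 of the 17 germline promoters.

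The signalling pathways were read from ligands, receptors and feedback targets. In the FGF pathway 9 of 18 tested genes were higher and 2 lower in the KO, against 10 and 3 in wt. The feedback inhibitors *Spry4* and *Dusp4* rose from 0.497 and 2.37 to 33.3 and 62.5 CPM and from 1.49 and 2.68 to 49.96 and 63.1. *Spry4* ended above both wt D15 libraries (26.2 and 22.8). For *Dusp4*, KO D15 replicate 1 lay below and replicate 2 above both wt D15 libraries (51.5 and 54.5). The ligand gene *Fgf3* fell from 8.55 and 10.6 to 0.952 and 0.884 CPM. In the Wnt pathway 11 of 25 were higher and 6 lower in the KO, against 15 and 3 in wt, and 9 had a lower change. Among the ligands, *Wnt4* went from 0.0331 and 0.109 to 2.41 and 7.55 CPM and *Wnt7b* from 2.998 and 0.810 to 32.8 and 55.6. *Sp5*, a target of β-catenin, fell from 3.89 and 19.3 to 0.340 and 0.865 CPM and stayed between 1.45 and 3.10 in wt (difference -4.94, edgeR adjusted p = 0.012), and *Nkd1*, a feedback inhibitor, had 1.92 and 4.19, then 5.27 and 6.11 CPM in the KO, against a rise to 31.4 and 33.7 in wt.

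For Nodal and BMP 11 of 23 tested genes were higher and 2 lower in the KO, against 17 and 3 in wt, and 8 had a lower change. *Id2*, a direct BMP target, rose from 5.50 and 4.24 to 102 and 91.5 CPM, a log2 fold change of 4.32 ± 0.22 (SE), against 123 and 125 CPM in wt D15. *Bmp2*, a ligand gene, reached 1.07 and 6.66 CPM, against 22.9 and 21.3 in wt. *Fst*, follistatin, an inhibitor of activin, fell from 9.24 and 29.3 to 3.996 and 5.19 CPM and rose from 2.49 and 2.46 to 7.37 and 6.28 in wt. The list's KO median of 0.76 was -0.03 in the 4 KO libraries alone. In the retinoic acid pathway 4 of 12 were higher and 2 lower in the KO, against 5 and 0 in wt. The KO shares were 33.3% and 16.7%, against 19.7% and 7.87% of all tested genes. *Cyp26a1*, which degrades retinoic acid, reached 2.86 and 13.4 CPM from 0.248 and 0.218. *Rarb*, a receptor gene that retinoic acid induces, fell from 2.14 and 2.35 to 0.561 and 0.626 CPM in the KO and rose from 0.216 and 0.453 to 13.2 in both libraries in wt. Its difference of -7.22 (edgeR adjusted p = 0.00027) was among the 6 most negative of those called with at least 5 TPM in some group. *Aldh1a3*, an enzyme that makes retinoic acid, fell from 65.3 and 46.4 to 9.23 and 3.31 CPM in the KO, and in wt was between 3.29 and 4.98 on both days.

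Imprinted genes, which are expressed from 1 parental copy and many of which promote or restrain growth, had 10 of 23 tested members higher and 1 lower in the KO, against 15 and 2 in wt, with 11 lower changes and 0 higher. *H19*, a noncoding RNA of the *Igf2* domain, rose from 4.36 and 5.95 to 2972 and 5928 CPM, a log2 fold change of 9.75 ± 0.41 (SE) that differed from wt by -0.01 (edgeR adjusted p = 0.99). In wt *H19* rose from 17.6 and 15.2 to 14500 and 13990 CPM, so its KO levels were below both wt libraries on both days. *Igf2*, the growth factor of the same domain, rose from 1.24 and 1.62 to 46.2 and 35.2 CPM and to 1170 and 1003 in wt, from 10.4 and 13.0 (difference -1.71, edgeR adjusted p = 0.0050). *Dlk1*, a Notch-like growth regulator, went from 3.48 and 2.96 to 9.39 and 5.69 CPM in the KO, a rise that was 0.83 and not called without D15 replicate 1, and to 166 and 199 in wt. *Plagl1*, a zinc-finger gene at 10:13060504-13131694, was the 1 member that fell, from 372 and 398 to 43.1 and 36.7 CPM (log2 fold change -3.27 ± 0.22 SE, edgeR adjusted p = 1.6e-05), whereas wt rose from 174 and 265 to 493 and 390.

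The Polycomb and demethylase genes themselves were mostly steady. Of 24 tested, 2 were higher and 2 lower in the KO, against 3 and 4 in wt. Each KO share was 8.33%, against 19.7% higher and 7.87% lower of all tested genes. *Bmi1*, a PRC1 subunit, fell from 44.8 and 38.6 to 5.03 and 6.98 CPM and *Ezh1*, the methyltransferase of resting cells, rose from 23.7 and 26.02 to 86.9 and 73.7, both as in wt. *Kdm6b*, the other H3K27 demethylase gene, was at 92.2 and 88.2 CPM at D0 and 93.3 and 72.7 at D15 in the KO, with overlapping days, and at 99.6 and 111, then 180 and 191 in wt; neither change reached 2-fold, and their difference was -0.94 (edgeR adjusted p = 0.012). Of 26 cell cycle genes 2 were higher and 5 lower in the KO (7.69% and 19.2%, against 19.7% and 7.87% of all genes) and 4 and 8 in wt. *Ccnd2*, cyclin D2, rose from 3.68 and 7.38 to 21.5 and 41.5 CPM, against 127 and 114 in wt (difference -3.81, edgeR adjusted p = 0.0032). None of the 20 tested cholesterol synthesis genes was called in the KO by edgeR, with a median log2 fold change of -0.14.

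Beyond the lists, the largest positive differences between the genotypes were those of *Amd1*, *Misp*, *Nrsn1*, *2610528J11Rik*, *Ripply1* and *Osm*. *Nrsn1*, a neuronal membrane protein gene, rose from 0.116 and 0.0623 to 8.76 and 8.28 CPM in the KO and from 0.371 and 0.540 to 0.845 and 1.14 in wt. *Ripply1*, a corepressor gene of somite formation, rose from 0.348 and 0.156 to 16.2 and 11.2 CPM, against 5.24 and 5.61 from 3.41 and 3.40. *Osm*, a cytokine of the LIF family, rose from 1.82 and 2.65 to 7.57 and 6.79 CPM in the KO and fell from 12.2 and 12.9 to 1.25 and 1.49 in wt (difference 4.88, edgeR adjusted p = 0.00033). *Amd1* was near 0 in replicate 1 and at 5.53 and 6.55 CPM in replicate 2 of the KO on both days, has close copies, and is not read further. On the negative side stood *Hbb-y*, *Vtn*, *Spp2*, *Fgb*, *Rarb* and *Sel1l3*; *Spp2*, a secreted phosphoprotein gene of liver and bone, had 3.58 and 4.78 CPM in wt D15 and at most 0.153 in any KO library.

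The 2 KO D15 libraries differed from each other more than the 2 wt ones did. Among genes called higher in the KO, 13.8% were more than 2-fold apart between the D15 libraries, and replicate 2 was the higher in 336 of these 358. For genes called higher in wt, 4 of 3127 were that far apart. Mesenchymal transition genes had the widest gap, with replicate 2 above replicate 1 by a median of 1.52 on the log2 scale, followed by streak genes at 1.23 and trophoblast genes at 0.98. Visceral endoderm genes leaned to replicate 1 by 0.37 and naive pluripotency genes likewise by 0.37. Without D15 replicate 2 the KO rises numbered 2420 and without replicate 1 they numbered 2613. The part of clone, culture or cell mixture in this gap was not tested.

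**Figure D4:**
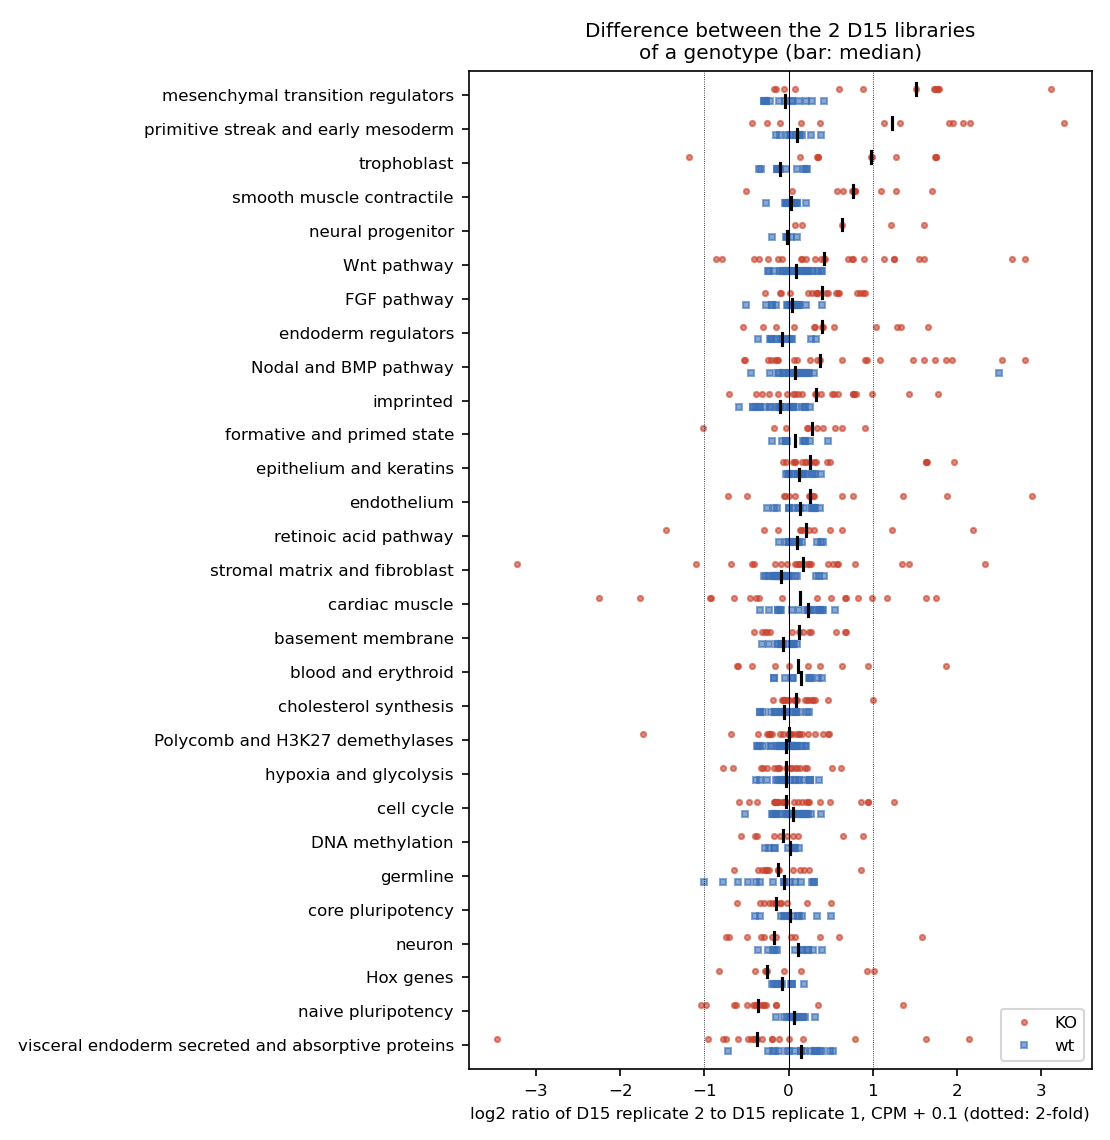
Log2 ratio of D15 replicate 2 to D15 replicate 1 for each tested list gene in the KO (red circles) and wt (blue squares), with bars at the medians and dotted lines at 2-fold. The wt genes gather near 0, and KO genes spread to both sides, furthest to the right for mesenchymal transition (median 1.52) and streak genes (1.23) and to the left for visceral endoderm genes (-0.37).

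X inactivation was carried out in part. *Xist*, the noncoding RNA that coats the Xi, lies at X:103460366-103483254. It rose from 21.9 CPM in both KO libraries to 92.96 and 233 CPM, a log2 fold change of 2.89 ± 0.47 (SE; edgeR adjusted p = 0.00093), against 14.1 and 8.62, then 770 and 400 CPM in wt. The KO D0 level was above both wt D0 libraries and the KO D15 level below both wt D15 libraries, and the change was lower by 2.79 (edgeR adjusted p = 0.017). The CRISPR control, with 1 library a day, also lay above both wt libraries at D0 and below both at D15. Its D0 level was below both KO D0 libraries, and its D15 level of 340.9 CPM was above both KO D15 libraries. The change in the control was not tested. Of the *Xist* reads with SNPs at D15, 95.4% and 95.5% came from the Xi allele in the KO libraries, with 1112 and 2614 Xi reads against 53 and 122 *cast* reads. *Tsix*, its antisense partner, went from 58.8 and 67.1 to 56.4 and 35.2 CPM with no call. The library kit named in the labels and methods does not mark strand, so reads where *Xist* and *Tsix* overlap cannot be told apart.

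Allele shares of X-linked genes moved the same way. Over 341 X-linked genes with at least 20 SNP reads in each of the 8 libraries, *Xist* and *Tsix* left out, the median Xi share of SNP reads was 50% and 49.9% in the KO at D0, and 46.7% and 42.9% at D15. In wt it went from 48.8% and 49.7% to 31.1% and 33.3%, and in the CRISPR control, with 1 library a day and no replicate check, from 50.96% to 34.2%. The median non-*cast* share of autosomal genes stayed between 50% and 51.6% in wt and KO. Per gene, the Xi share fell in 83.0% of X-linked genes in the KO, by a median of 4.80 percentage points, and in 89.1% in wt, by 15.1 points, and it fell by less in the KO for 84.5%. KO D15 replicate 2 had both more *Xist* and the lower Xi share of the 2 libraries. Genes below an Xi share of 20% numbered 15 and 21 of 341 in the KO at D15, up from 10 and 11 at D0, and 62 and 60 in wt at D15.

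Reads of each allele were then tested. On reads of the Xi allele 77 of 383 X-linked genes (20.1%) were lower at D15 in the KO, against 8.63% of all genes tested on non-*cast* reads, and 44 (11.5%) were higher, against 19.8%. In wt 177 (46.2%) were lower, against 15.2%. On *cast* reads 39 of 409 (9.54%) were lower in the KO, against 8.79% of all genes, a share near the background. The change on Xi reads was higher in the KO than in wt for 78 X-linked genes (20.4%) and lower for 5 (1.305%), against 6.04% and 8.25% of autosomal genes. On *cast* reads it was higher for 41 (10.0%) and lower for 48 (11.7%), against 6.404% and 8.16% of autosomal genes. The median log2 change on Xi reads was -0.33 in the KO and -0.95 in wt, against 0.03 and 0.06 for non-*cast* reads of autosomes. Over all reads 90 of 492 X-linked genes were higher in the KO (18.3%, against 19.7% of all genes) and 62 lower (12.6%, against 7.87%). Chromosomes 6 and 12 of the KO departed from even shares as well, with non-*cast* medians of 55.7% to 63.8% and of 52.6% to 58.2%, chromosome 6 furthest in replicate 2 on both days, and wt departed on chromosome 12 (35.3% to 39.6%), on chromosome 8 (44.5% to 47.5%) and on chromosome 11, from 51.6% and 52.1% at D0 to 45.3% and 45.7% at D15. Chromosome 6 of wt went from 52.9% and 53.6% at D0 to 48.2% and 48.8% at D15. Their part in changes of genes on these chromosomes, *Nanog* and *Dppa3* on chromosome 6 among them, was not tested.

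**Figure D5:**
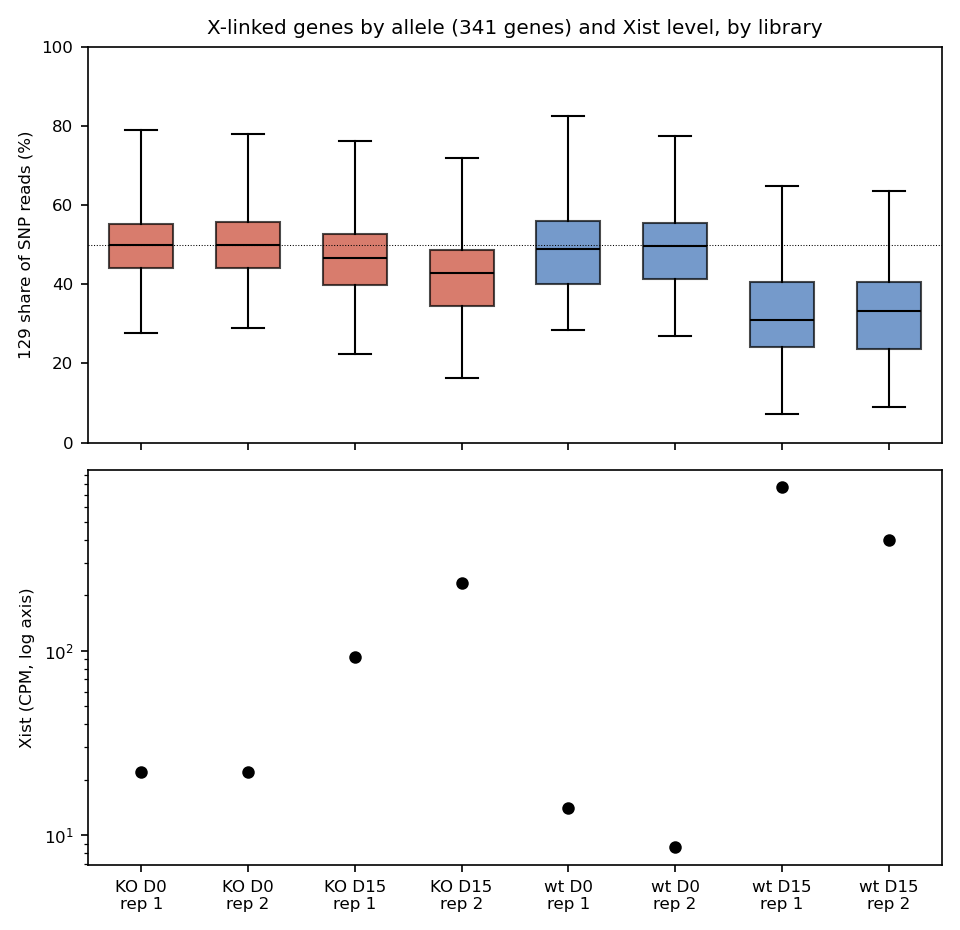
Top, the share of SNP reads from the Xi allele in percent over 341 X-linked genes in each KO (red) and wt (blue) library, with boxes for the quartiles, whiskers from the lowest to the highest 5% and a dotted line at 50%; bottom, *Xist* in CPM on a log axis. KO medians go from 50% and 49.9% at D0 to 46.7% and 42.9% at D15 and wt medians to 31.1% and 33.3%, and *Xist* at D15 lies at 92.96 and 233 CPM in the KO and at 770 and 400 in wt.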

How the data were processed

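RNA-seq libraries of *Tsix*-stop cells (129 × *cast*) were analysed, 2 each of wt and *Kdm6a* KO at D0 and D15, with the CRISPR control (1 library a day) for allele shares and the *Xist* level only. The authors mapped reads with TopHat2 2.1.1 and Bowtie2 2.4.5 (submitters' processing notes) to mm10 and deposited estimated counts per gene, all reads and reads assigned by SNPs to 129 or *cast*. Here 7.10% of the values were not whole and were rounded. TPM values of another line were not used; TPM here were computed from CPM and exon lengths. Genes at 2.5 CPM or more in 2 libraries were fitted with edgeR 4.0.16 (TMM, quasi-likelihood, 8 libraries in one model), and called at an FDR of 0.1 and a 2-fold change after Benjamini-Hochberg adjustment. SNP reads were fitted alike with a minimum of 20 reads in 2 libraries. CPM were scaled to TMM-adjusted library sizes. Each SE was derived from the test, as the absolute log2 fold change divided by the square root of the quasi-likelihood F statistic. DESeq2 1.42.0, other filters, thresholds and left-out libraries were alternatives. Scripts were tested on simulated data. Libraries held 51091158 to 68796184 counts, and counting intervals and floors (3 counts per library) cover counting error only.

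Of 24346 symbols, 23310 matched GENCODE on GRCm38 directly and 666 by synonym. Genes named were the 12 largest called rises and falls of at least 5 TPM whose libraries did not overlap, the 4 largest changes and 2 largest differences from wt in each of 29 lists, the 6 largest called differences each way, and a set of lineage markers. *Fbxo15*, *Klf2*, *Ovol2*, *Cldn7*, *Thy1*, *Des*, *Cnn2*, *Myl9*, *Prl3d1* and *Tpbpa* were named after their values were seen where not in that rule. The members and lists were chosen with earlier results of these data known.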

Additional observations from a re-analysis of the deposited data

Results flagged for a closer look

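The KO change and the wt change differed by the interaction test in 884 genes with a higher and 1359 with a lower change in the KO, and each gene below passed that test (edgeR, adjusted over all 13121 genes). All values are the KO log2 change minus the wt log2 change.

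Higher changes in the KO were those of *Amd1* at 9.82, *Misp* at 5.44, *Nrsn1* at 5.43, *2610528J11Rik* at 5.21, *Ripply1* at 5.09, *Osm* at 4.88, *Tubb3* at 3.68 and *Zfp42* at 1.35. *Amd1* was near 0 in KO replicate 1 on both days and has close copies, and its difference was not called without KO D15 replicate 2 (2.42, edgeR adjusted p = 0.83) or without any 1 wt library (edgeR adjusted p from 0.12 to 0.22).

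Lower changes among lineage markers were those of *Kdr* at -6.20, *Cdx2* at -4.49, *Gata6* at -3.74, *Sox17* at -3.33, *T* at -2.81, *Gata4* at -1.98, *Col1a1* at -1.67 and *Klf4* at -1.375. The difference of *Cdx2* was not called without KO D0 replicate 2 (-1.57, edgeR adjusted p = 0.31) or without any 1 wt library (edgeR adjusted p from 0.11 to 0.17). *Xist* differed by -2.79. The most negative were *Hbb-y* at -12.46, *Vtn* at -11.11, *Spp2* at -7.44, *Fgb* at -7.24, *Rarb* at -7.22 and *Sel1l3* at -7.05. *Hbb-y*, *Vtn*, *Spp2* and *Fgb* were at or near 0 counts in several KO libraries, so their fitted sizes depend on the prior count and are no bounds. Without KO D0 replicate 1 neither *Vtn* (-7.99, edgeR adjusted p = 0.9999) nor *Fgb* (-4.13, edgeR adjusted p = 0.95) was called. *Spp2* was not called with the replicate number as a block (-7.47, edgeR adjusted p = 0.14), without KO D0 replicate 2 (-5.15, edgeR adjusted p = 0.9998) or without either wt D0 library, and *Sel1l3* was not called without KO D0 replicate 2 (-6.77, edgeR adjusted p = 0.11).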

How the results depend on the processing

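Of 158 named genes called in the KO, 143 were called under every alternative that tested them and 0 changed sign. Of 99 called differences from wt, 69 were called under every alternative that tested them and 0 changed sign. A gene that an alternative's filter removed was not counted as lost, so both counts are favoured for genes nearly silent in the KO. The differences of *Foxa1*, *Hand2* and *Rarb*, for example, were tested in 11 alternatives and that of *Gata4* in 14. Without a filter on low counts KO rises and falls numbered 4010 and 1655, wt 4834 and 2879, and higher changes in the KO 1350. Without a minimum fold the KO had 4377 and 4148, wt 4969 and 4859, and the differences 2252 higher and 2226 lower; at 4-fold they were 1389 and 272, 1812 and 399, and 233 and 511. X-linked falls without a minimum fold were 161 on Xi reads and 102 on *cast* reads. These settings test more genes or move the threshold by construction.

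With 1 library left out, KO rises ranged from 2403 to 2635 and falls from 964 to 1068, wt from 2904 to 3186 and 1674 to 1874, higher changes in the KO from 692 to 931 and lower ones from 885 (without wt D15 replicate 1) to 1636, X-linked falls from 60 to 87 on Xi and 35 to 48 on *cast* reads; the cause was not tested.

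With the replicate number as a block (a paired fit), the KO gave 2587 and 1033, wt 3141 and 1852, and differences 869 and 1417. The numbers are not known to pair samples: deviations of same-numbered libraries correlated at 0.22 in the KO and -0.19 in wt over 13121 genes. A crossed block, added after seeing the data, gave 2586 and 1032, 3141 and 1847, and 915 and 1471.

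Of the 29 list medians in the KO, 7 moved by more than the spread between replicates and 2 turned sign with the filter in 4 libraries. In KO libraries alone 9 moved and 2 turned sign. Genes that had passed the filter through wt D15 alone left the test in both settings. Without KO D15 replicate 2, 8 moved and 2 turned sign, and without any other KO library 3 to 5 moved. Signs turned as follows. The streak median was -0.84 with the filter in 4 libraries and -0.68 in KO libraries alone (1 library left out: -0.33 to 2.10), that of the Nodal and BMP pathway -0.13 and -0.030 (0.70 to 0.81), and that of neurons ran from -0.082 to 0.085 with 1 library left out. *Dppa2* was 0.016 and 0.025 in the first 2 settings, and *Snai2* -0.027 with no filter and -0.019 with the block. With 1 library left out *Dppa2* ranged from -0.119 to 0.118, *Cdx2* from -2.22 to 2.05, *Vtn* from -3.12 to 3.77, *Ramp2* from -0.25 to 0.11, *Snai2* from -0.31 to 0.30, *Tet1* from -0.47 to 0.00055, *Amd1* from -7.17 to 7.45, *Kdm6a* from -1.66 to 0.35, *Kdm6b* from -0.30 to 0.077 and *Pecam1* from -0.15 to 0.36. None of these genes was called in the KO with all 8 libraries; *Kdm6a* at -1.66 (without KO D15 replicate 1), *Amd1* at 7.45 (without KO D0 replicate 2) and *Cdx2* at -1.76 (without KO D0 replicate 1) were called then.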
